A study of Rattus norvegicus with 7 samples.

Results

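The aryl hydrocarbon receptor and the genes around it were examined in rMSCs, primary mesenchymal stem cells from rat bone marrow, 4 h after seeding on 3 surfaces. The gene group held Ahr, its dimer partner Arnt, its repressors Ahrr and Tiparp, and the target enzymes Cyp1a1, Cyp1b1 and Aldh3a1. The group was selected on the difference between the ISB-P and PCL films, because Aldh3a1 and Cyp1b1 were lower on ISB-P. Levels on those films are therefore given for these genes as a description with no test. Of the 7 genes named, 6 were found by symbol among the 17147 genes of the files, and Tiparp was not analysed here.

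The 7 libraries comprised 3 from ISB-P film, 3 from PCL film and 1 from TCP, and in every case 20000 cells had been seeded. The study's methods give alpha MEM with serum as the growth medium of the rMSCs and name none for the sequencing. ISB-P is the polyurethane copolymer of polycaprolactone with propoxylated isosorbide and PCL the plain polycaprolactone control. Both were 16 mm films sterilized with EO gas, and TCP was the plastic of a tissue culture plate. Triplicate sequencing is described in the study's methods, whereas only 1 TCP library was analysed here. The methods also describe isolation of the cells from a male Sprague-Dawley rat, although they later write of rats, and they do not say whether replicates were separate cultures. The p-values therefore measure only the spread between these libraries, which may be technical. Values are FPKM, fragments scaled for transcript length and library size, so that levels of different genes can be set side by side. How the libraries were scaled to each other is not given in the sources used here.

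The receptor is a ligand-activated transcription factor of the bHLH-PAS family. Without ligand it is held in the cytosol in a complex with Hsp90 and Ptges3, and with ligand it enters the nucleus, pairs with Arnt and binds the xenobiotic response element. Its classic targets are phase I and phase II enzymes, and it also induces Ahrr and Tiparp, which restrain it. Cyp1b1 is the member of the Cyp1 family best known in mesenchymal cells, whereas Cyp1a1 is mostly low until the receptor is activated.

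Mesenchymal markers were present in all libraries. Thy1 was between 925 and 1210 FPKM and all 8 markers on the list passed the filter on low values. The endothelial, epithelial and hepatocyte markers stayed under 1 FPKM in each library, and the 3 adipocyte markers summed to under 1 on the films and 4.79 on TCP. The 6 haematopoietic markers summed to 17.5 to 19.6 FPKM on PCL, 14.5 to 15.4 on ISB-P and 41.5 on TCP, most of it Cd14, while Cd34 was listed at 0 throughout. In bulk RNA, fewer cells of a type and less RNA per cell cannot be told apart.

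Promoters are shown for 2 of the genes because both hold the extended response element. RefSeq windows (GRCr8) were matched by symbol for 5 of the 7 genes, namely Ahr, Ahrr, Arnt, Cyp1b1 and Tiparp. The sequences below cover the 250 bases upstream of the annotated start, 5′ to 3′ on the strand of the gene, and capitals mark the core GCGTG or its complement CACGC. Cyp1b1 lies at chr6:21094315-21094564 and Ahrr at chr1:30821969-30822218, both on the plus strand.
Cyp1b1: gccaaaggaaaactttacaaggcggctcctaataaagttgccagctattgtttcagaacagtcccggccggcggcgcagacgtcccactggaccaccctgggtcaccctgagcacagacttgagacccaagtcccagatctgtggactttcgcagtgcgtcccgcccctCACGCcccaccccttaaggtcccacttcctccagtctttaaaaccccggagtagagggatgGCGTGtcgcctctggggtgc
Ahrr: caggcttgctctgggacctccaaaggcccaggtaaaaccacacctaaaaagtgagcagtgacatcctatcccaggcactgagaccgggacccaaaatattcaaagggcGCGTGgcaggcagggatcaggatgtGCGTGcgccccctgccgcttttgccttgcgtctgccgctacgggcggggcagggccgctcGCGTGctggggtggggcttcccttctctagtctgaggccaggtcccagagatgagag

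The core was searched on both strands of the whole window of 300 bases, which runs 50 bases past the start in each gene. It occurred 2 times for Cyp1b1, beginning 81 and 20 bases before the start, and 3 times for Ahrr, at 142, 117 and 57 bases. Arnt held it 1 time and Ahr 0 times. Of all 33469 windows, 29.7% held the core. The longer form TNGCGTG, which includes the core, occurred 1 time each for Cyp1b1 and Ahrr against 4.89% of all windows. The hypoxia core ACGTG, bound by Arnt with other partners, was in none of these 4 windows and in 19.3% of all. These matches are a description of letters and show no binding.

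The target enzymes were lower on ISB-P than on PCL in every library. Cyp1b1, a P450 that oxidizes polycyclic hydrocarbons and oestrogens, had 802, 726 and 675 FPKM for PCL replicates 1, 2 and 3, against 378, 330 and 264 for their ISB-P counterparts. The lowest PCL library was thus well above the highest ISB-P library. The means were 734 ± 63.8 FPKM (SD, n = 3) and 324 ± 57.1 (SD, n = 3), so that ISB-P held 44.1% of the PCL level (log2 difference -1.19, standard error 0.16, on log2(FPKM + 1)). Of the 6 genes it was the most abundant on all surfaces. Here and below, standard errors are those of the limma fit over all tested genes, which borrows variance from other genes. They are thus not the spread of these libraries alone.

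Aldh3a1, which oxidizes aromatic and medium-chain aldehydes, was 107, 113 and 113 FPKM on PCL and 28.7, 28.6 and 27.8 on ISB-P. Both groups were tight. The means of 111 ± 3.39 FPKM (SD, n = 3) and 28.3 ± 0.511 (SD, n = 3) differed 3.93-fold, with coefficients of variation of 3.05% and 1.80%. The log2 difference was -1.94 (standard error 0.11 from the fit, against a pooled SD of 0.036 between replicates on the same scale).

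Cyp1a1, the enzyme used most often as a readout of receptor activity, was 1.77, 1.97 and 1.86 FPKM on PCL and 0.200, 0.314 and 0.352 on ISB-P. It was the lowest of the 6 genes by far and passed the filter only through the PCL libraries. The ratio of the means, 1.86 ± 0.101 and 0.289 ± 0.0792 FPKM (SD, n = 3 each), was 6.46 in favour of PCL, whereas the log2 difference was -1.15 (standard error 0.10) because the added 1 FPKM compresses low values. With 0.1 added in place of 1 it was -2.36. The read number behind these values is unknown.

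**Figure D1:**
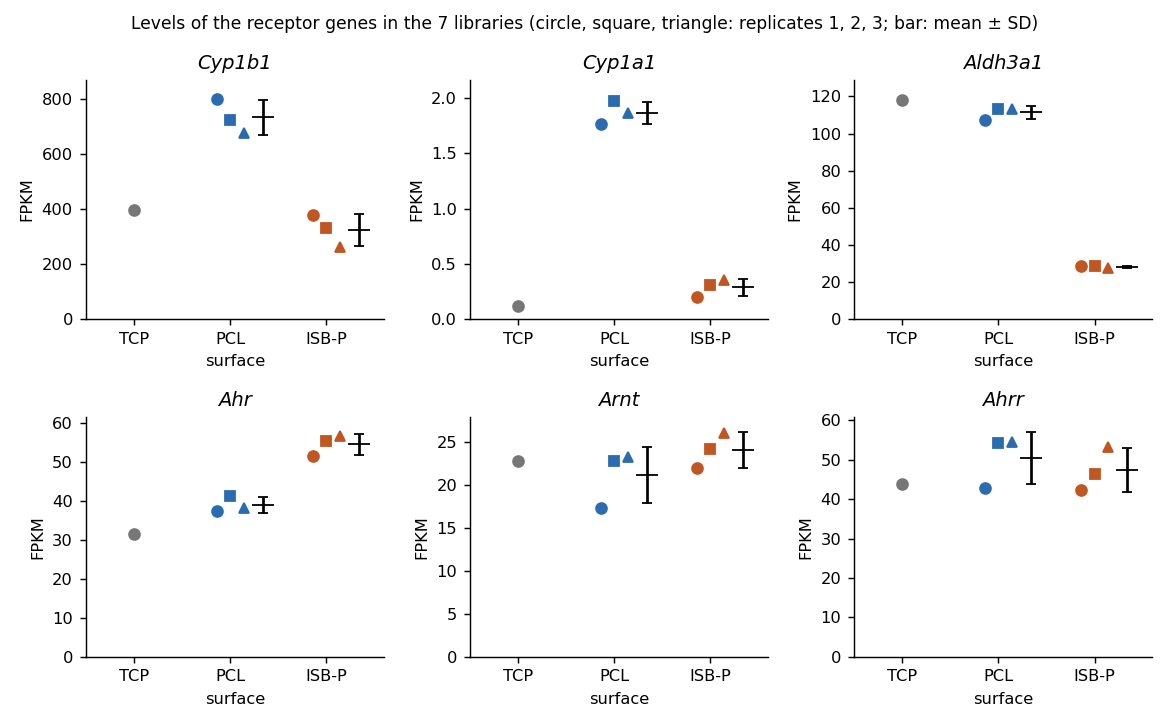
FPKM (y axis, linear, from 0) of 6 genes in each library on TCP (grey), PCL (blue) and ISB-P (orange), with symbols for replicate numbers and a bar for the mean ± SD of the 3 film libraries. Cyp1b1, Cyp1a1 and Aldh3a1 sit lower on ISB-P than on PCL without overlap, Ahr sits higher, and Arnt and Ahrr overlap.

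The receptor itself went the other way. Ahr was 37.4, 41.3 and 38.2 FPKM in the PCL libraries and 51.4, 55.4 and 56.7 in the ISB-P libraries. The groups did not overlap. ISB-P was 1.40-fold above PCL (54.5 ± 2.78 and 38.9 ± 2.05 FPKM, SD, n = 3 each), a log2 difference of 0.47 (standard error 0.12).

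Arnt, the partner required for binding to DNA, was 17.4, 22.8 and 23.2 FPKM on PCL and 22.0, 24.2 and 26.1 on ISB-P. Ahrr, which competes with the receptor for Arnt, was 42.8, 54.2 and 54.5 FPKM on PCL and 42.3, 46.3 and 53.3 on ISB-P. Both genes overlapped between the films. Their log2 differences were 0.19 (standard error 0.16) for Arnt and -0.09 (standard error 0.16) for Ahrr. These standard errors take no account of the replicate number. Within numbers 1, 2 and 3 the differences were 0.32, 0.08 and 0.16 for Arnt, and -0.016, -0.22 and -0.030 for Ahrr. For both, replicate 1 was the lowest library on either film.

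Counted over the group, 3 of the 6 genes were lower on ISB-P without overlap and 1 was higher without overlap. Among the 9467 tested genes, 9.54% were lower and 8.17% higher in this way. As the genes were chosen from this contrast, nothing is read from the count.

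Differences between the films were also taken within each replicate number. The PCL value of Cyp1b1 was between 2.12 and 2.56 times that on ISB-P, with replicate 3 the furthest apart. For Aldh3a1 the ratios were 3.74, 3.97 and 4.08 in replicates 1, 2 and 3, and for Cyp1a1 8.83, 6.26 and 5.28. All 3 enzymes were lower on ISB-P within every number. Ahr was 1.37, 1.34 and 1.48 times higher on ISB-P, Arnt 1.26, 1.06 and 1.12 times, and Ahrr 0.989, 0.854 and 0.979 times the PCL value.

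**Figure D2:**
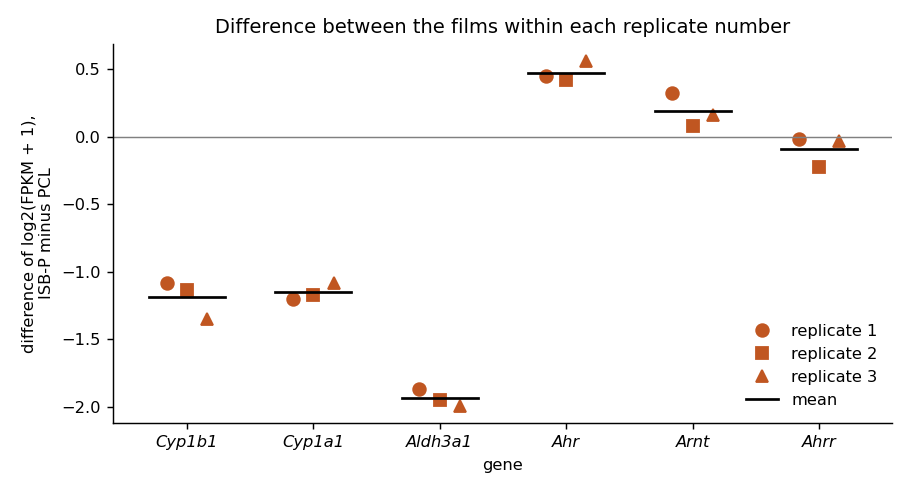
Difference of log2(FPKM + 1) between ISB-P and PCL (y axis) for 6 genes, with a symbol for each replicate number and a line for the mean. The 3 enzymes lie between -1.99 and -1.08, Ahr between 0.42 and 0.56, and Arnt and Ahrr nearer to 0.

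The balance between genes within a library shifted with the film. The FPKM of Ahr was 0.873, 0.761 and 0.701 times that of Ahrr in PCL replicates 1 to 3 and 1.21, 1.20 and 1.06 times on ISB-P. By FPKM, Ahr was thus below Ahrr in each PCL library and above it in each ISB-P library, and on TCP it was 0.720 times Ahrr. These are ratios of RNA, not of protein, and Ahrr itself overlapped between the films. Aldh3a1 was 2.51, 2.09 and 2.08 times the FPKM of Ahrr on PCL, and 0.679, 0.617 and 0.520 times on ISB-P. The ratio of Cyp1b1 to Aldh3a1 was 5.95 to 7.46 on PCL and 9.52 to 13.2 on ISB-P, which shows that Aldh3a1 was reduced by the larger factor.

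The single TCP library placed the enzymes differently from one another. Such levels have no replicate check on TCP. Aldh3a1 was 118 FPKM on TCP, just above the highest PCL library and 4.17 times the ISB-P mean. Cyp1b1 was 397 FPKM on TCP, beyond the highest ISB-P library by a narrow margin and well under PCL, whose mean was 1.85 times as high. Cyp1a1 was 0.122 FPKM on TCP, below every film library, and the PCL mean was 15.3 times that value. The order was therefore TCP, PCL, ISB-P for Aldh3a1, PCL, TCP, ISB-P for Cyp1b1 and PCL, ISB-P, TCP for Cyp1a1. TCP was 1.06 times the PCL mean for Aldh3a1 and 1.22 times the ISB-P mean for Cyp1b1, while the ISB-P mean of Cyp1a1 was 2.37 times its TCP value, both levels of Cyp1a1 being under 1 FPKM. With 1 TCP library these differences cannot be set against a spread on TCP.

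Ahr was lowest on TCP, at 31.6 FPKM, then PCL, then ISB-P, whose mean was 1.73 times the TCP value. Arnt was 22.8 FPKM and Ahrr 43.9 on TCP, both inside the range of the PCL libraries. Relative to TCP, the direction of Arnt and of Ahrr on ISB-P depended on the scaling. On the log2(FPKM + 1) scale Aldh3a1 was the only one of the 6 genes more than 2-fold lower on ISB-P than on TCP, where 4.28% of the tested genes were lower by that measure. None of the 6 was 2-fold higher on ISB-P than on TCP, against 8.98%. Cyp1a1 was the only one more than 2-fold higher on PCL than on TCP, against 5.56% of the tested genes, and none was 2-fold lower there, against 3.04%. The haematopoietic markers, higher on TCP as given above, move with these comparisons and their part was not tested.

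Patterns most like those of the enzymes were sought among the 3250 tested genes whose range over the 7 libraries was at least 1 on the log2(FPKM + 1) scale. For Aldh3a1 the closest were Ankrd34a, Sema4c and Lbh, with Pearson r of 0.998, 0.992 and 0.989 over 7 libraries. Lbh was 87.3 to 93.4 FPKM on PCL, at most 41.6 on ISB-P and 87.9 on TCP. For Cyp1b1 they were Mgp, Gpt2 and Ndst2, with r of 0.997, 0.980 and 0.976. Mgp, which encodes matrix Gla protein, an inhibitor of calcification, was 141 to 179 FPKM on PCL, 52.5 to 72.8 on ISB-P and 83.1 on TCP. Aldh3a1 and Cyp1b1 correlated with each other at 0.811, Cyp1a1 with Cyp1b1 at 0.900 and Cyp1a1 with Aldh3a1 at 0.649. With 7 points in 3 groups such values follow mostly from the group levels and are given as a description.

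The rest of the pathway was taken from 8 lists of other genes, written from general knowledge or by symbol. These lists were written with earlier results of these data known, so nothing is read from the share of their genes that passed. They held 137 genes of the files, 58 of which reached 1 FPKM in 3 or more of the 6 film libraries and were tested. Compared between ISB-P and PCL by limma's moderated test on log2(FPKM + 1), 4 of the 58 (6.90%) passed an adjusted p of 0.05, the adjustment running over the 9467 genes tested, against 1.72% of all tested genes. All 4 rose on ISB-P, where 1.1% of all tested genes rose. One of them, Aldh1a3, was under 1 FPKM in each PCL library and so entered the test only through ISB-P, where it was high. Without it 3 of 57 genes passed. None of the 58 fell, against 0.623%. At an unadjusted p under 0.05 were 11 of the 58, against 12.1% of all tested genes, and 3 of these were lower on ISB-P, against 6.58%. When the replicate number entered as a block, 14 of the 58 (24.1%) passed, 10 higher and 4 lower, against 24.4% of all tested genes. The 4 calls dropped to 0 without PCL replicate 2 and to 1 without ISB-P replicate 2, and to 2 without PCL replicate 1, PCL replicate 3 or ISB-P replicate 1.

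Of the complex that holds the receptor in the cytosol, Hsp90ab1 rose on ISB-P among 5 tested genes, whose median log2 difference was 0.52 beside 0.02 for all tested genes. That median was 0.26 without ISB-P replicate 3 and 0.28 without PCL replicate 1. Hsp90ab1 was 516, 466 and 620 FPKM on PCL and 1080, 882 and 1097 on ISB-P (log2 difference 0.93, standard error 0.15, adjusted p = 0.0405 in limma). The call was lost without any 1 of the 6 libraries, at an adjusted p of 0.0763 to 0.214, with the no filter setting (0.0547) and with the minimum of 16 FPKM (0.0503). Hsp90aa1 was 310, 346 and 542 FPKM on PCL and 920, 1002 and 2167 on ISB-P, with an adjusted p of 0.0922 that became 9.32e-06 with the replicate block. Both Hsp90 genes are among those the study selected on these libraries, so they are not independent evidence of a direction. Ptges3, the p23 cochaperone, had a log2 difference of 0.52 (adjusted p = 0.655, or 8.03e-04 with the block).

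Among other targets of the receptor, 2 of 11 tested genes rose on ISB-P, against 1.1% of all tested genes, with a median of 0.10. None of the 11 fell, against 0.623%. Gsta1, a glutathione transferase, was 42.7, 48.2 and 54.5 FPKM on PCL, 173, 190 and 250 on ISB-P and 21.8 on TCP (log2 difference 2.04, standard error 0.18, adjusted p = 0.00395). Its family holds close paralogs whose reads the authors' counting may have split. The paralog Gsta2, named after its values were seen, was 9.30, 10.7 and 15.7 FPKM on PCL, 7.13, 9.95 and 6.86 on ISB-P and listed at 0 on TCP (log2 difference -0.51, adjusted p = 0.448), with overlap between the films. Ereg, the growth factor epiregulin, was 7.06, 9.03 and 9.06 FPKM on PCL, 30.0, 35.4 and 45.3 on ISB-P and 0.269 on TCP (log2 difference 2.00, standard error 0.19, adjusted p = 0.00534). Without PCL replicate 2 the adjusted p in limma was 0.0526 for both genes, and for Ereg 0.054 without ISB-P replicate 2. Of the 11 tested targets, 7 had a log2 difference above 0, against 52.9% of all tested genes, so nothing is read from that count. The cause of these directions was not tested.

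Nqo1, the quinone reductase of the classic receptor gene battery, was 1274 to 1468 FPKM on PCL and 1307 to 1633 on ISB-P (log2 difference 0.07, standard error 0.13, adjusted p = 0.931 in limma). The films overlapped for Nqo1, and the PCL mean was 7.36 times and the ISB-P mean 7.78 times the 183 FPKM on TCP. Xdh, xanthine dehydrogenase, named after its values were seen, was 34.5 to 36.8 FPKM on PCL and 24.4 to 27.4 on ISB-P (log2 difference -0.43, adjusted p = 0.173, or 0.00382 with the replicate block). Hes1, a Notch target, was 26.0 to 28.4 FPKM on PCL and 36.9 to 48.8 on ISB-P (adjusted p = 0.0951, or 0.00159 with the block). Cyp1a2, the liver form of the Cyp1 family, was listed at 0 in each library.

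**Figure D3:**
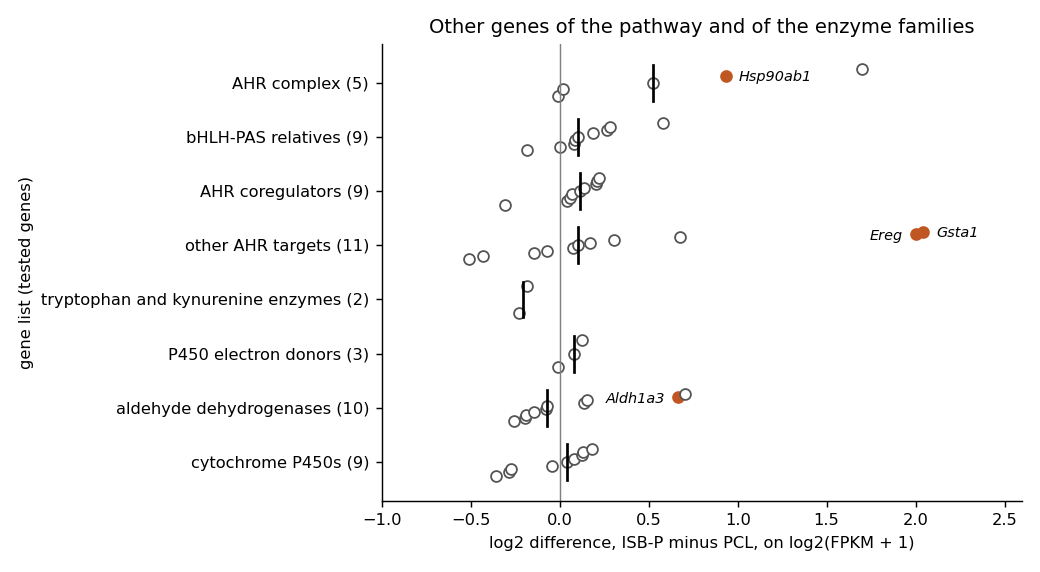
Log2 difference between ISB-P and PCL on log2(FPKM + 1) (x axis) for the tested genes of 8 lists, with the number of genes in brackets and a line at each median. Filled points have an adjusted p under 0.05 in limma, and all 4 of them (Hsp90ab1, Gsta1, Ereg and Aldh1a3) lie to the right of 0.

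None of the 9 tested bHLH-PAS relatives passed the test in limma, 1 having an unadjusted p under 0.05 (Per2, adjusted p = 0.41), against 12.1% of all tested genes. The next largest after Hif1a and Per2 was Per1, a clock gene, with a log2 difference of 0.26 (adjusted p = 0.765). Their median was 0.10, and below 0 under 1 alternative. Hif1a, which shares Arnt as a partner under hypoxia, was 38.9, 63.2 and 75.4 FPKM on PCL and 56.1, 81.3 and 139 on ISB-P (log2 difference 0.58, adjusted p = 0.689, or 0.00403 with the replicate block). Arnt2, the paralog of Arnt, was 2.19 to 2.36 FPKM on PCL, 2.36 to 2.59 on ISB-P and 3.61 on TCP. None of the 9 tested coregulators passed in limma and 0 had an unadjusted p under 0.05, with a median of 0.12. Among them, Nrip1 and Rb1 had log2 differences of 0.22 and 0.21.

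Enzymes that make or clear receptor ligands from tryptophan were at low levels where they were found. Of 12 symbols on the list, 7 were in the files and the others could not be examined. Among the 7, 4 stayed under 1 FPKM in each library, Ido1, Tdo2, Kynu and Kmo. Aadat was at most 0.194 FPKM on PCL and 0.257 to 1.11 on ISB-P, and it did not pass the filter. Only Afmid and Ccbl1 were tested. Neither passed in limma (log2 differences of -0.23 and -0.18) and 0 had an unadjusted p under 0.05. Por, which supplies P450 enzymes with electrons, was 47.5 to 50.7 FPKM on PCL and 44.6 to 64.3 on ISB-P, and it and the other 2 electron donors tested, Cyb5a and Cyb5r3, had log2 differences of 0.12, 0.08 and -0.01, with 0 under an unadjusted p of 0.05.

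The families of the lowered enzymes were examined by symbol. Of 18 other aldehyde dehydrogenases, 10 were tested and their median log2 difference was -0.07. Aldh1a3, which makes retinoic acid, rose on ISB-P (0.598, 0.355 and 0.310 FPKM on PCL, 1.33, 1.24 and 1.17 on ISB-P and 4.31 on TCP, log2 difference 0.66, adjusted p = 0.0412 in limma), a call lost under upper quartile scaling (adjusted p = 0.0955), with a common total (0.0737) and without any 1 of the 6 libraries (0.0688 to 0.224). Aldh1a3 passed the filter only through ISB-P, and with no filter its adjusted p was 0.0259. Aldh1l1, a folate enzyme, was 0.981 to 1.57 FPKM on PCL, 2.32 to 3.04 on ISB-P and 4.82 on TCP (adjusted p = 0.0695 in limma, or 0.00126 with the replicate block). Its mitochondrial relative Aldh1l2 was 14.1 to 17.7 FPKM on PCL and at most 13.9 on ISB-P (log2 difference -0.26, adjusted p = 0.57, or 0.0412 with the replicate block). Without the block none of the 10 fell, with 0 lower at an unadjusted p under 0.05. With the block 2 passed as higher and 1 as lower, against 24.4% of all tested genes passing in either direction. Aldh3a2, the closest relative of Aldh3a1, was 17.1, 18.6 and 19.8 FPKM on PCL and 15.5, 14.9 and 17.8 on ISB-P (log2 difference -0.20, standard error 0.13, adjusted p = 0.706), and its films overlapped. Aldh3b1 was between 0.544 and 1.10 FPKM.

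Of 69 other cytochrome P450 genes, 56 were under 1 FPKM in all libraries and 30 were listed at 0 throughout. None of the 9 tested passed in limma, with 2 at an unadjusted p under 0.05, both lower, against 6.58% of all tested genes, and a median of 0.04 that fell below 0 under 5 of the alternatives. The largest difference was that of Cyp2u1, a fatty acid hydroxylase, at 3.81 to 4.26 FPKM on PCL and 2.85 to 3.05 on ISB-P (log2 difference -0.36, standard error 0.10, adjusted p = 0.184, or 0.0232 with the replicate block). Cyp4f6 and Cyp11b2 followed at -0.28 and -0.27 (adjusted p = 0.552 and 0.35). Cyp20a1, the highest of the 69, reached 65.6 FPKM, against 264 or more for Cyp1b1 in every library.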

How the data were processed

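Per the labels, the submitters' processing notes name bcl2fastq 2.20.0.422, cutadapt 1.18, TopHat2 2.0.13, Cuffdiff 2.2.1 and build rn5, and the methods name ExDEGA. The libraries were TruSeq stranded mRNA, read as paired ends. The authors deposited 1 table of FPKM values per library for 17147 gene symbols. The annotation, options and handling of multiply mapped reads are not given in the sources used here. The values summed to between 539393 and 660124 in a library, which is not read depth. Low values (under 0.06 FPKM) of 2 libraries kept a common ratio for 8% to 45.5% of genes over the 21 pairs of libraries, so depth could not be recovered and no counting interval is given. Precision rests on 3 libraries per film, and the standard errors also borrow variance from other genes in limma.

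Groups and replicate numbers came from the sample titles. FPKM were used as deposited. The 9467 genes that reached 1 FPKM in 3 or more of the 6 film libraries were fitted with limma 3.58.1 in R 4.3.3 (lmFit, eBayes with trend) on log2(FPKM + 1), ISB-P against PCL, two-sided, with Benjamini-Hochberg adjustment over all of them and adjusted p under 0.05 as the threshold. The fit was tested on simulated data whose libraries varied independently, without the spread shared by replicate number seen here. TCP, with 1 library, entered no test. Replicate numbers paired the films: deviations from the film mean correlated across genes at 0.887, 0.431 and 0.867 for numbers 1, 2 and 3. For different numbers the average was -0.356, which largely follows from taking deviations within each film and adds no support. The genes studied and the lists were chosen with earlier results of these data known. Named genes were those studied, up to 5 called genes of each list or its 3 largest differences, close relatives (Parp1 left out with Tiparp), and the 3 genes most like Aldh3a1 and Cyp1b1. Some results under this rule are not reported here. Others are marked as named after their values were seen, or serve as markers. Alternatives covered scaling, pseudocount, filter, block, TCP in the fit, thresholds and each replicate left out. RefSeq promoter windows (GRCr8) served for sequence only. Figures used matplotlib 3.10.9.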

Additional observations from a re-analysis of the deposited data

How the results depend on the processing

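The log2 differences between ISB-P and PCL kept their sign for all 6 genes under each of the 10 alternatives run for them. Upper quartile scaling, quantile normalization and a common total gave 0.40, 0.39 and 0.36 for Ahr, and -2.01, -2.02 and -2.05 for Aldh3a1, which moved by more than the small spread between replicates. Pseudocount 0.1 gave -2.36 for Cyp1a1. With each replicate left out the range was -1.96 to -1.92 for Aldh3a1, -1.31 to -1.05 for Cyp1b1, -1.19 to -1.10 for Cyp1a1, 0.45 to 0.52 for Ahr, 0.06 to 0.26 for Arnt and -0.20 to -0.014 for Ahrr.

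Relative to TCP, the same 3 scalings moved the median of all tested genes on ISB-P from 0.08 to -0.11, -0.01 and -0.09. They gave 0.57, 0.60 and 0.59 for Ahr, -2.22, -2.21 and -2.20 for Aldh3a1, and -0.098, -0.093 and -0.079 for Ahrr, which was 0.11 as deposited. Arnt, 0.08 as deposited, was -0.12 with upper quartile scaling and -0.10 with a common total. Pseudocount 0.1 gave 0.81 for Cyp1a1 and -2.06 for Aldh3a1.

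The fit called 163 genes, of which 63.8% were higher on ISB-P. The count was 108 with upper quartile scaling, 58 where one film had to average 16 FPKM or more, 65 with the thresholds of the study and 2307 with the replicate block. Called genes were higher in 50.0% with a common total (70 and 70), in 53.2% with the replicate block and in 81.0% with the minimum of 16 FPKM. With 1 replicate left out it ranged from 20 to 113. Of the 58 other pathway genes, 4 were called, 2 with the minimum of 16 FPKM, 14 with the replicate block, and 0 to 3 with 1 replicate left out. The median of the electron donors changed sign under 3 alternatives. The cause of these shifts was not tested, beyond the fewer genes or libraries that the settings themselves impose. The read depth is unknown, and the comparisons with plastic rest on a single TCP library.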

Other observations

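Among the markers used to check the cells, Pdgfrb, the receptor for platelet-derived growth factor on mesenchymal cells, was 177, 167 and 154 FPKM on PCL, 110, 97.4 and 86.6 on ISB-P and 177 on TCP (log2 difference -0.76, standard error 0.14, adjusted p = 0.051 in limma, or 1.41e-04 with the replicate block). Pdgfrb was lower on ISB-P without overlap, as were 9.54% of all tested genes, and 24.4% of them passed with the block. It was picked out among the mesenchymal markers after their values were seen. Cd14 was 14.4, 16.6 and 14.9 FPKM on PCL, 11.2, 11.4 and 10.9 on ISB-P and 31.7 on TCP (adjusted p = 0.175, or 0.00663 with the block). The other mesenchymal markers had log2 differences between the films of at most 0.23 in size.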
